A study of Danio rerio with 6 samples.

Results

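Transcripts of *scarb1*, *acsbg2*, *retsat.2* and *acp6*, genes of lipid and retinoid handling, were followed in the zebrafish larval gut after injection of the cytokine IL-26. They were picked because their transcripts had some of the lowest p-values of the whole comparison, and they are 4 of the 16134 transcript rows in the table (rows NM_198921, NM_001126379, NM_001015061 and NM_001110380, in that order). All samples came from wild-type (WT) larvae at 5 days post fertilization (dpf). One group had received rzIl26, zebrafish IL-26 made as a recombinant protein, and the control group had received BSA, an albumin from bovine serum. Both proteins were given by injection to gut and swim bladder, 1 h before the guts were dissected. There were 3 libraries per group, and each pooled 10 to 15 guts, so a library is a mean over animals and differences between single larvae cannot be seen.

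The 4 genes have different roles in the handling of lipids and retinoids, and they were not chosen as parts of 1 pathway. Scarb1 is the homolog of the mammalian scavenger receptor class B type I, a membrane protein that takes cholesteryl esters out of high-density lipoprotein (HDL) and that also carries carotenoids into cells. Carotenoids are plant pigments, and some of them are cleaved into retinal by enterocytes, the absorptive cells of the gut. Retinal can be reduced to retinol, the alcohol form of vitamin A. Retinol saturase, encoded by *retsat.2*, reduces a double bond of all-trans-retinol and yields dihydroretinol. Acsbg2 belongs to the bubblegum family of acyl-CoA synthetases, which couple long and very long fatty acids to coenzyme A so that they can be burned, elongated or built into lipids. Acp6 is the homolog of a human mitochondrial acid phosphatase that removes the phosphate from lysophosphatidic acid, an intermediate of phospholipid and triglyceride synthesis and also a signalling lipid.

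After rzIl26 the transcripts of *scarb1*, *acsbg2* and *retsat.2* were lower and those of *acp6* higher than after BSA. The ratio of rzIl26 to BSA was 0.469 for *scarb1*, 0.505 for *acsbg2*, 0.566 for *retsat.2* and 2.78 for *acp6*. In none of the 4 did a library of one group reach the range of the other. The same held for 39.6% of all rows tested, and a choice by low p-values favours such a gap.

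Levels are given as CPM, that is, counts per 1000000 counts of the library after TMM correction of its size. Transcript lengths were not used, so levels are compared between libraries for the same gene and not between genes. The receptor transcript *scarb1* was found at 338, 353.5 and 372 CPM in the 3 BSA libraries (replicates 1, 2 and 3) and at 166.0, 166.5 and 166.4 CPM in the 3 rzIl26 libraries. Replicates are given in this order throughout. The groups were far apart. The rzIl26 libraries lay closer together than the BSA libraries, with a coefficient of variation of 0.167%, below the 1.77% that counting error alone gives at this depth, against 4.82% after BSA. The log2 fold change was -1.09 (SE 0.07).

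For *acsbg2*, the acyl-CoA synthetase, the BSA libraries had 402, 437 and 449 CPM and the rzIl26 libraries 231, 209 and 210 CPM. Both groups varied to a similar degree, with coefficients of variation of 5.76% and 5.73%. The log2 fold change was -0.98 (SE 0.08).

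For *retsat.2*, the retinol saturase, there were 355, 374.5 and 362 CPM after BSA and 206, 195.5 and 216 CPM after rzIl26. The log2 fold change was -0.82 (SE 0.07).

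The phosphatase transcript *acp6* rested on fewer counts, with 465, 379 and 449 raw counts in the BSA libraries, where the other 3 genes had at least 5322. Scaled, it had 24.2, 25.2 and 23.2 CPM after BSA and 62.8, 78.1 and 61.0 CPM after rzIl26. Replicate 2 stood above the other rzIl26 libraries, and the coefficient of variation was 14.0% in this group against 4.11% after BSA. The log2 fold change was 1.48 (SE 0.11), and it was 1.35 without rzIl26 replicate 2.

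**Figure D1:**
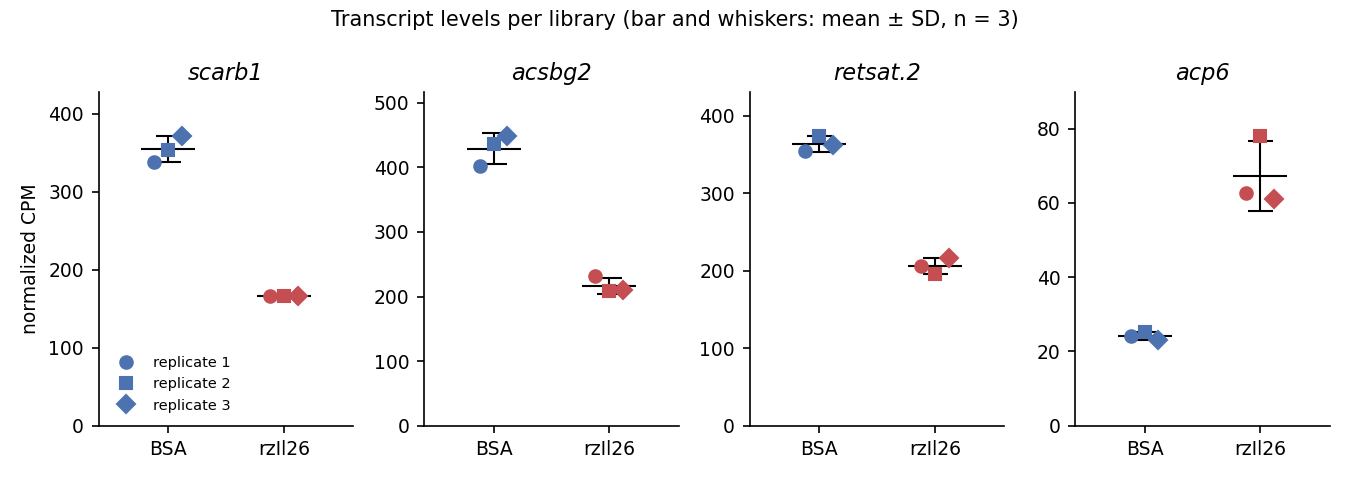
Normalized CPM (y axis, from 0) of *scarb1*, *acsbg2*, *retsat.2* and *acp6* in each BSA and rzIl26 library. Symbols are replicates and the bar with whiskers is the mean ± SD (n = 3). The groups are apart in each panel, with *scarb1* at 338 to 372 CPM after BSA and 166 CPM after rzIl26, and *acp6* at 23.2 to 25.2 CPM and 61.0 to 78.1 CPM.

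These differences chose the genes, so they describe the data and no test is read from them. By edgeR's quasi-likelihood test over 10576 rows, *scarb1* ranked 2, *acp6* 6, *acsbg2* 8 and *retsat.2* 12 in the order of p-values, with adjusted p-values from 0.0020 to 0.0032. There was no step in significance at the edge of the choice, since the rows ranked 11 and 13, on either side of *retsat.2*, also had an adjusted p-value of 0.0032. All 4 genes passed the threshold of 0.05, where 18.9% of all rows did. The groups did not overlap in 39.6% of all rows. The 4 genes were chosen by p-value and not by size, and larger changes existed. Of the rows that passed, 61 had a larger fall than *scarb1*, 156 a larger fall than *retsat.2* and 86 a larger rise than *acp6*.

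The size of each change depended little on which libraries were set against each other. Over the 9 pairings of a BSA library with an rzIl26 library, the log2 difference ran from -1.16 to -1.02 for *scarb1*, from -1.10 to -0.80 for *acsbg2*, from -0.94 to -0.71 for *retsat.2* and from 1.28 to 1.75 for *acp6*. All 4 genes passed the threshold under each of the 15 alternatives tried, 6 of which left out a library. The genes were chosen for low p-values in these same libraries, so these ranges and passes describe them and add no support.

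**Figure D2:**
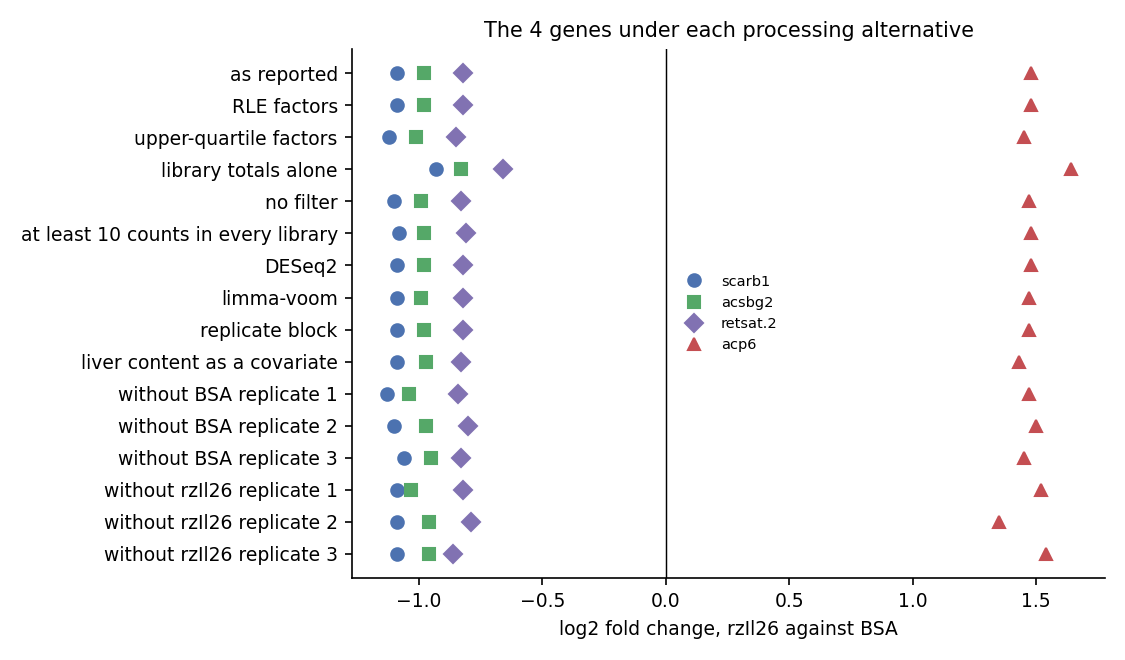
Log2 fold change of rzIl26 against BSA (x axis) for *scarb1*, *acsbg2*, *retsat.2* and *acp6* as reported and under each of 15 alternatives. No alternative changed a sign, and the values ran from -1.13 to -0.93 for *scarb1* and from 1.35 to 1.64 for *acp6*.

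The 3 genes that were lower had nearly parallel profiles across the libraries. All 3 were chosen for low p-values in this contrast of 2 groups, and their falls were of similar size. That alone makes their profiles alike, so the likeness is no separate result. After centring log2(CPM + 0.5) on the mean of the 6 libraries, *scarb1* and *acsbg2* differed by a root mean square of 0.073, *acsbg2* and *retsat.2* by 0.109, and *scarb1* and *retsat.2* by 0.146. Within a library, the ratio of *scarb1* to *retsat.2* counts was 0.952, 0.944 and 1.03 after BSA and 0.806, 0.852 and 0.770 after rzIl26, so the share of *scarb1* relative to *retsat.2* was lower in each rzIl26 library. The ratio of *acp6* to *scarb1* counts was 0.0717, 0.0712 and 0.0624 after BSA and 0.378, 0.470 and 0.367 after rzIl26. Such ratios do not depend on how the libraries are scaled. Their shift between the groups restates the changes for which the genes were chosen.

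The gut identity of the libraries was checked on markers, and the values that moved with the groups are given here because each pool of dissected tissue can hold other cells. The enterocyte transcripts *vil1*, *cdh17* and *cldn15la* were abundant and had log2 fold changes of 0.05, 0.10 and -0.07, none past the threshold (adjusted p from 0.50 to 0.68). Of the 8 enterocyte markers 1 was higher (*apoa4a*, log2 fold change 0.90) and 1 lower (*rbp2a*, -0.59). The marker *slc15a1b* had 1931 to 2147 CPM after BSA and 1165 to 1764 CPM after rzIl26. Its groups did not overlap, but it did not pass (-0.43, adjusted p = 0.077 in edgeR's test). The summed level of the 8 markers was 13230 to 13880 CPM after BSA and 11060 to 14500 CPM after rzIl26. The enterocyte marker *fabp2* was listed at only 0.17 to 1.66 CPM. Per 1000 *vil1* counts there were 106, 123 and 116 *scarb1* counts after BSA and 49.3, 54.7 and 52.5 after rzIl26, and for *acp6* 7.57, 8.76 and 7.25 against 18.7, 25.7 and 19.2. This microvillus protein transcript itself had a log2 fold change of only 0.05. The ratios to it therefore restate the changes for which the genes were chosen and add no support. Enterocyte markers that were lower after rzIl26, such as *rbp2a*, were not used as a reference. In a bulk tissue, fewer cells of a type and less RNA per cell cannot be told apart.

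Liver transcripts varied strongly between pools, with a sum over 14 markers of 2788 to 8220 CPM after BSA and 2460 to 9979 CPM after rzIl26. Of the 14, 0 passed the threshold, but 13 had a log2 fold change above 0, with a median of 0.76. With liver content as a covariate the log2 fold changes were -1.09 for *scarb1*, -0.97 for *acsbg2*, -0.83 for *retsat.2* and 1.43 for *acp6*. The fin fold and skin markers moved with the groups. In that list 4 of 5 tested genes were higher (*and1*, *and2*, *and3* and *krt4*). The transcript of *and2* rose from 1.79 ± 0.70 to 33.7 ± 11.8 CPM (SD, n = 3; log2 fold change 4.20), a call kept in 6 of 6 fits without a library. The log2 fold changes of *and3*, *and1* and *krt4* were 3.61, 1.865 and 0.24. The calls of *and3* and *and1* were kept in 6 of 6 fits without a library and that of *krt4* in 0. The sum over 6 markers was 1144 to 1210 CPM after BSA and 1371 to 1601 CPM after rzIl26. Most of that sum was *krt4*, at 1078 to 1163 CPM and 1267 to 1383 CPM, while *krt5* was at or near 0. Both goblet and secretory markers with a row (*agr2* and *anxa4*) were higher too, at 413 to 474 CPM against 612 to 627 CPM. The lysosome-rich enterocyte marker *ctsl.1* was higher, at 1776 to 2277 CPM after BSA and 2519 to 2959 CPM after rzIl26 (log2 fold change 0.42, adjusted p = 0.037), a call kept in 0 of 6 fits without a library, while *dab2* of the same list was near 0. Of 4 enteroendocrine markers 1 was higher, *gcga*, at 24.1 to 41.2 CPM against 52.6 to 102 CPM (1.24, adjusted p = 0.026, kept in 3 of 6 fits), and that list summed to 35.0 to 51.3 CPM and 63.1 to 113.5 CPM. All 4 tested skeletal muscle markers had a log2 fold change above 0 (median 0.47), and 0 passed. The part of these markers in the levels of the 4 genes was not tested. Of 9 exocrine pancreas markers 0 passed, with sums of 32830 to 45630 CPM after BSA and 23630 to 41300 CPM after rzIl26. Of 2 tested leukocyte markers 0 passed. They were *lyz*, at 1.29 to 2.39 CPM after BSA and 2.22 to 5.06 CPM after rzIl26 (1.16, adjusted p = 0.061 in edgeR's test), and *lcp1* (-0.09, adjusted p = 0.59). Eye markers summed to at most 0.15 CPM, and none was tested. Library totals ranged from 15156164 to 22219894 counts. The 100 most abundant transcripts took 46.5% to 48.3% of the counts after BSA and 42.4% to 43.3% after rzIl26, so the choice of scaling matters. Scaling by library totals alone shifted log2 fold changes upwards by 0.16 in the median row, and the changes given here are relative to the typical transcript.

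The genes around each of the 4 were examined in hand-written lists, to see whether relatives and partners behaved alike. Calls are from the same edgeR fit over all rows, adjusted by Benjamini-Hochberg, and the background was 9.60% of all rows lower and 9.27% higher, around a median change of 0.01 in log2.

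**Figure D3:**
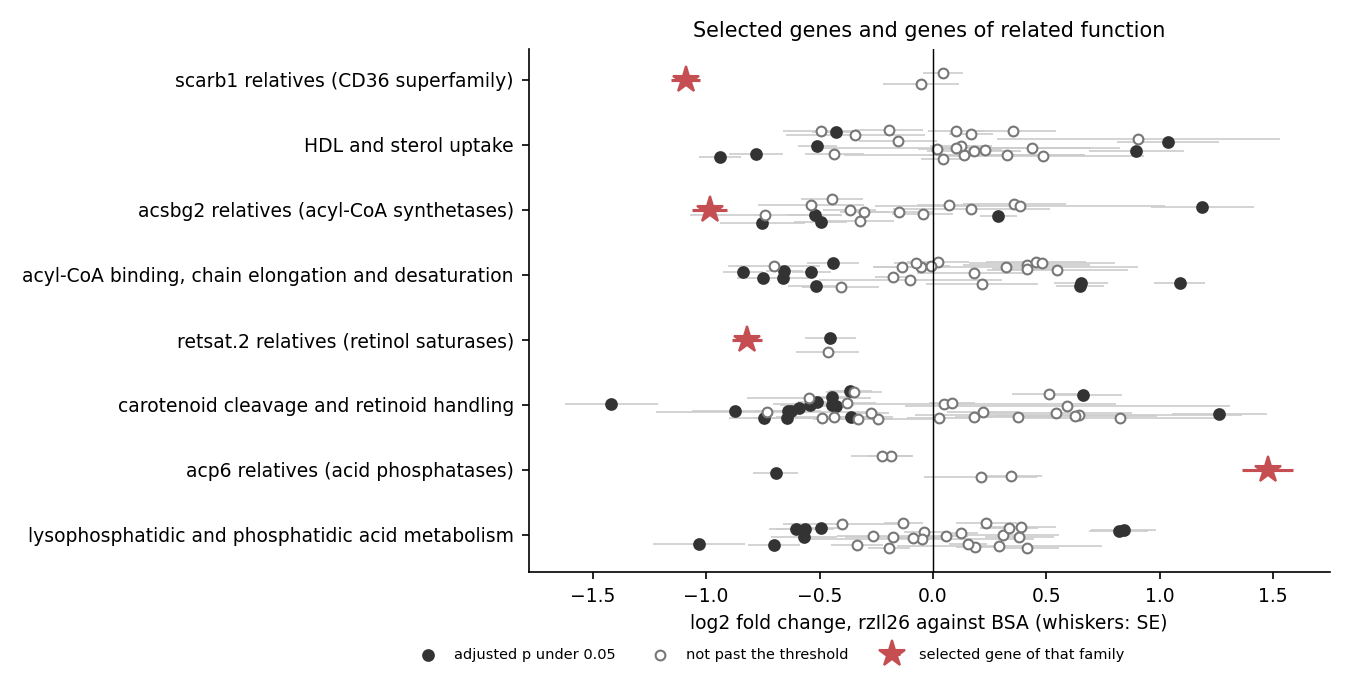
Log2 fold change of rzIl26 against BSA (x axis, whiskers SE) for the tested genes of 8 lists (rows). Stars mark *scarb1*, *acsbg2*, *retsat.2* and *acp6* beside the genes listed as their relatives. Filled circles passed an adjusted p-value of 0.05 and open circles did not. The retinoid list holds 14 lower and 2 higher calls. The value of *acp6*, 1.48, lies above the tested genes of the acid phosphatase list, which run from -0.69 to 0.34 and are not all of its protein family.

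Around *scarb1*, its relatives in the same protein superfamily did not pass the threshold. The fatty acid translocase gene *cd36* had 1766 ± 186 CPM after BSA and 1704 ± 417 CPM after rzIl26 (SD, n = 3), a log2 fold change of -0.05 (adjusted p = 0.85, SE 0.17). The lysosomal membrane protein gene *scarb2a* had 167 ± 7.1 and 172 ± 17 CPM (n = 3, SD), which gave a log2 difference of 0.04 (adjusted p = 0.76, SE 0.09). Whether *scarb1* differs from them in its change was not tested.

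Among 25 tested genes of HDL and sterol uptake, 4 fell, 2 rose and 19 did not pass, with a median log2 fold change of 0.10. Those that fell were led by apolipoproteins, the proteins that coat lipoprotein particles. The transcript of *apoa4b.2* fell from 7206 ± 541 to 3757 ± 382 CPM (n = 3, SD; a change of -0.94 in log2, adjusted p = 0.0039, SE 0.09). That of *apoea* fell from 6556 ± 1110 to 3821 ± 197 CPM (log2 fold change -0.78, adjusted p = 0.0095, SE 0.12), and *apoa4b.1* fell by 0.51 on the log2 scale (adjusted p = 0.011, SE 0.08). The other was *pdzk1*, whose mammalian counterpart is a scaffold that binds the tail of the HDL receptor. It fell from 1821 ± 86 to 1355 ± 194 CPM (log2 fold change -0.43, adjusted p = 0.033, SE 0.11), a call that was kept in 1 of the 6 fits that left out a library.

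The family was not uniform, because *apoa4a*, a close relative of both *apoa4b* genes, rose from 172 ± 48 to 320 ± 53.5 CPM (n = 3, SD; a change of 0.90 in log2, adjusted p = 0.027, SE 0.21). The other gene that rose was *lipg*, which encodes an endothelial lipase acting on HDL, at 1.04 (adjusted p = 0.021, SE 0.22). The calls of *apoa4a* and *lipg* were each kept in 3 of the 6 fits without a library. No gene of the list passed as higher without BSA replicate 3 or rzIl26 replicate 2, and 1 did without BSA replicate 1 or 2. Over all rows these fits gave 453, 404, 339 and 481 higher, in that order, against 980 as reported. The gene *apoa1a*, for the main protein of HDL, had a log2 difference of -0.43 (adjusted p = 0.054, SE 0.13) and did not pass. Its groups did not overlap, and it passed under 6 of the 15 alternatives. Its relative *apoa1b* had a log2 fold change of 0.49 (adjusted p = 0.49, SE 0.45) and did not pass either. It had 4742, 10950 and 4086 CPM after BSA and 4806, 11230 and 11660 CPM after rzIl26. Liver markers were also highest in BSA replicate 2 and rzIl26 replicates 2 and 3, and their part in *apoa1b* was not tested. In the whole list 9 genes had a log2 fold change below 0 and 16 above 0. The genes *pdzk1*, *apoa4a*, *apoa1a* and *apoa1b* were named after their values were seen.

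Around *acsbg2*, the other acyl-CoA synthetases were split. Of 17 tested, 3 fell, 2 rose and 12 did not pass, with a median of -0.30. The long-chain synthetase *acsl1b* fell from 147 ± 32 to 87.0 ± 16.2 CPM (n = 3, SD; a change of -0.75 in log2, adjusted p = 0.032, SE 0.19). The *acsl4* pair, whose mammalian counterpart prefers arachidonic acid, moved in opposite directions. Here *acsl4a* fell from 345 ± 37 to 241 ± 33 CPM (-0.52, adjusted p = 0.026, SE 0.12), and *acsl4b* rose from 70.2 ± 4.6 to 160 ± 52 CPM (1.19, adjusted p = 0.015, SE 0.23). The fatty acid transport gene *slc27a1a* fell by 0.49 (adjusted p = 0.028, SE 0.12), and the mitochondrial acetyl-CoA synthetase gene *acss1* rose by 0.29 (adjusted p = 0.047, SE 0.08).

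The calls in this family depended on single libraries. Without BSA replicate 1, BSA replicate 3 or rzIl26 replicate 2, 0 synthetases passed as lower in edgeR's test, and library totals alone also gave 0. Without rzIl26 replicate 1 there were 5, and with liver content as a covariate 1. Over all rows these fits gave 398, 525, 420, 400, 940 and 728 lower, in that order, against 1015 as reported. Of the higher calls, *acsl4b* was kept in 4 and *acss1* in 0 of 6 fits without a library, and of the lower calls *acsl4a* was kept in 2. The synthetase gene *acsl5* had 1018 ± 108 CPM after BSA and 748 ± 130 CPM after rzIl26 (-0.44, adjusted p = 0.060, SE 0.14). The synthetases that did not pass had log2 fold changes between -0.74 (*acsl3a*) and 0.38 (*slc27a1b*).

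Genes that bind, elongate or transport acyl-CoA gave 7 lower and 3 higher calls among 27 tested, with a median of -0.05. The acyl-CoA binding protein gene *dbi* fell from 399 ± 19 to 223 ± 21 CPM (n = 3, SD; a change of -0.84 in log2, adjusted p = 0.0043, SE 0.09; 1 of 2 rows of that gene). The peroxisomal fatty acid transporter gene *abcd3a* fell from 710 ± 32 to 451 ± 37 CPM (-0.65, adjusted p = 0.0054, SE 0.08), and *acbd5a*, whose human counterpart tethers peroxisomes and binds very long acyl-CoA, fell by 0.75 (adjusted p = 0.010, SE 0.12). In contrast, *hsd17b12a*, for a reductase of the elongation cycle, rose from 71.8 ± 4.6 to 153 ± 21 CPM (1.09, adjusted p = 0.0043, SE 0.11). All of these were kept in 6 of 6 fits without a library.

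Around *retsat.2*, the neighbouring gene *retsat.1* encodes another retinol saturase. It had 23.2 ± 3.6 CPM after BSA and 16.8 ± 1.9 CPM after rzIl26 (SD, n = 3), a log2 fold change of -0.46 (adjusted p = 0.057, SE 0.14). The groups did not overlap, but the gene missed the threshold. It passed with upper-quartile factors (-0.49) and with DESeq2 (-0.46). No other coding gene lies between these 2 genes in the reference annotation. How reads that match both were counted is not stated, so the division of reads between them is uncertain. The more distant relative *pyroxd2* fell by 0.45 (adjusted p = 0.033, SE 0.11), a call kept in 2 of 6 fits without a library. The relative *retsatl* was near 0 in all libraries and was not tested.

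Most tested genes of carotenoid cleavage and retinoid handling had a log2 fold change below 0 (23 of 37). Of these 37 tested genes 14 fell and 2 rose, 21 did not pass, and the median log2 fold change was -0.36. This count depended on the scaling and on single libraries, as did the count over all rows. Library totals alone gave 7 lower and 4 higher, where all rows gave 400 lower and 1783 higher, against 1015 and 980 as reported. There were 5 lower calls without BSA replicate 1, and 7 each without BSA replicate 2, BSA replicate 3 or rzIl26 replicate 2. All rows gave 398, 497, 525 and 420 lower in these fits, in that order.

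Among the genes of carotenoid cleavage 2 of 3 tested fell. The oxygenase that splits beta-carotene into retinal is encoded by *bco1*, which fell from 513 ± 26 to 306 ± 66 CPM (n = 3, SD; a change of -0.75 in log2, adjusted p = 0.018, SE 0.15). Its relative *bco1l* fell by 0.54 (adjusted p = 0.033, SE 0.14). Both were named after their values were seen, and *bco1l* was kept in 1 of 6 fits without a library. Next come the carriers, in which 2 of 7 tested genes fell and 1 rose. The retinol binding protein of enterocytes, *rbp2a*, fell from 1621 ± 118 to 1075 ± 33 CPM (-0.59, adjusted p = 0.0054, SE 0.07). The largest fall in the list was that of *stra6l*, whose relative *stra6* encodes a membrane receptor for retinol binding protein. It had 43.7, 49.95 and 60.5 CPM after BSA and 17.1, 15.4 and 25.2 CPM after rzIl26 (-1.42, adjusted p = 0.0084, SE 0.20).

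The enzymes that interconvert retinol and retinal fell or did not pass. Of 13 tested dehydrogenases and reductases 8 fell and 0 rose, with a median of -0.43. Among them *rdh12* fell from 42.1 ± 0.9 to 27.3 ± 2.6 CPM (n = 3, SD; a change of -0.62 in log2, adjusted p = 0.0085, SE 0.09) and *dhrs9* from 310.4 ± 18.0 to 231 ± 2 CPM (-0.43, adjusted p = 0.010, SE 0.07). Of these 8 calls, those of *rdh12*, *dhrs9* and *rdh1* were kept in 6 of 6 fits without a library. Those of *rdh8a*, *rdh14a*, *dhrs3b* and *rdh12l* were kept in 2 each and that of *rdh14b* in 0. The fall was not uniform, since 3 of the 13 had a log2 fold change above 0 (*rdh10b*, *rdh10a* and *dhrs3a*). None of the 3 passed. For *rdh10b* the groups did not overlap, at 17.9 to 21.6 CPM after BSA and 22.9 to 35.1 CPM after rzIl26 (0.51, adjusted p = 0.067 in edgeR's test). The groups of *rdh10a* did not overlap either, at 19.7 to 20.4 CPM and 21.3 to 24.2 CPM (0.18, adjusted p = 0.17), while those of *dhrs3a* did. Of 9 tested nuclear receptor genes, which encode the proteins that carry the retinoic acid signal to DNA, 2 fell (*raraa* and *rxrgb*), and these calls were kept in 1 and 2 of 6 fits without a library. Apart from *rdh12* and *dhrs9*, the genes of this paragraph were named after their values were seen.

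The 2 genes that rose encode proteins that bind retinoic acid or break it down. The transcript of *cyp26b1*, an enzyme that breaks retinoic acid down, went from 4.77 ± 0.52 to 7.54 ± 1.36 CPM (n = 3, SD; a change of 0.66 in log2, adjusted p = 0.038, SE 0.17), a call kept in 1 of 6 fits without a library. That of *crabp2a*, a binding protein for retinoic acid, went from 0.98 ± 0.12 to 2.37 ± 0.14 CPM (1.26, adjusted p = 0.011, SE 0.21), at a low count. Of 5 tested genes of retinoic acid synthesis and breakdown, 1 rose and 4 did not pass. Relatives of *cyp26b1* did not pass in edgeR's test, and their log2 fold changes had opposite signs. These relatives were *cyp26a1* (-0.49, adjusted p = 0.16, SE 0.22) and *cyp26c1* (0.83, adjusted p = 0.21, SE 0.42). For *cyp26a1* the groups did not overlap. The genes *cyp26b1*, *crabp2a*, *cyp26a1* and *cyp26c1* were named after their values were seen. The genes for retinyl ester formation and isomerization, *lrata*, *lratb.2* and the *rpe65* genes, were at or near 0 and not tested. The enterocyte marker *fabp2* was low too (0.17 to 1.66 CPM), so such rows were not read as absence of the transcript.

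**Figure D4:**
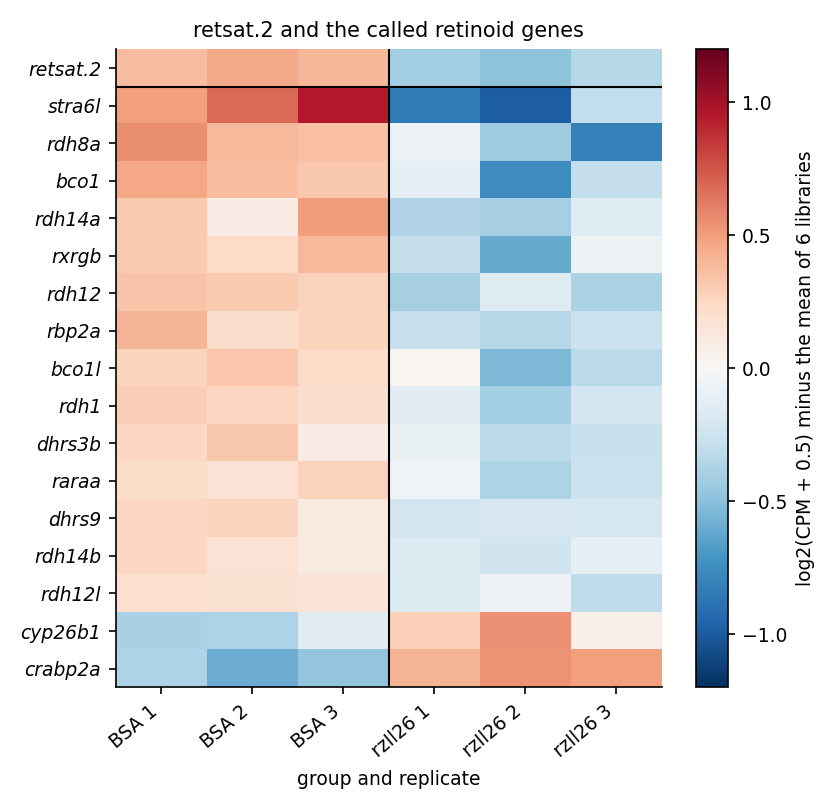
Levels of *retsat.2* (top row) and of the 16 retinoid genes past the threshold, as log2(CPM + 0.5) minus the mean of the 6 libraries, for BSA and rzIl26 replicates 1 to 3 (columns). Red is above and blue below a gene's mean. Of these, 14 were lower after rzIl26 and *cyp26b1* and *crabp2a* were higher.

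Around *acp6*, the tested genes listed as acid phosphatases, which are not all of its protein family, gave 0 higher calls in edgeR's test as reported. Of 5 tested, 1 fell and 4 did not pass. The lysosomal acid phosphatase gene *acp2* fell from 105.5 ± 2.6 to 65.2 ± 7.9 CPM (n = 3, SD; a change of -0.69 in log2, adjusted p = 0.0083, SE 0.10), kept in 6 of 6 fits without a library. The others were *acp7* (0.34, adjusted p = 0.12, SE 0.14), *acp5b* (-0.19, adjusted p = 0.23, SE 0.10), *minpp1b* (-0.23, adjusted p = 0.29, SE 0.14) and *pxylp1* (0.21, adjusted p = 0.59, SE 0.25). With library totals alone *acp7* passed as higher, at 0.51.

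In the metabolism of lysophosphatidic and phosphatidic acid, where the Acp6 homolog of humans acts, 6 of 28 tested genes fell and 2 rose, with a median of -0.04. The acyltransferase gene *agpat2*, whose product turns lysophosphatidic acid into phosphatidic acid, fell from 384 ± 17 to 236 ± 38 CPM (n = 3, SD; a change of -0.70 in log2, adjusted p = 0.011, SE 0.12). One gene for the last step of triglyceride synthesis, *dgat2*, fell from 540 ± 65 to 264 ± 73 CPM (-1.03, adjusted p = 0.017, SE 0.20). Of other genes for that step, *dgat1a* fell by 0.57 (adjusted p = 0.034, SE 0.14), a call kept in 1 of 6 fits without a library. The gene *dgat1b* did not pass (0.06, adjusted p = 0.71, SE 0.095). Both *dgat1* genes were named after their values were seen. The genes that rose were *agpat4*, a relative of *agpat2*, from 4.42 ± 0.49 to 7.94 ± 0.74 CPM (0.84, adjusted p = 0.012, SE 0.14), and *lpar6a*, for a receptor of lysophosphatidic acid, from 18.7 ± 3.2 to 33.0 ± 0.6 CPM (0.82, adjusted p = 0.010, SE 0.13). Another receptor gene, *lpar2a*, fell from 25.7 ± 4.0 to 17.4 ± 1.5 CPM (-0.56, adjusted p = 0.026, SE 0.13), a call kept in 2 of 6 fits without a library. It was named after its values were seen, and the other tested receptor genes of this list did not pass. Library totals alone gave 3 lower and 7 higher genes in this list, so the balance of its calls depends on the scaling. Over all rows they gave 400 lower and 1783 higher, against 1015 and 980 as reported. There were 3 lower calls without BSA replicate 1, 2 or 3 or rzIl26 replicate 2, where all rows gave 398, 497, 525 and 420.

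Transcripts with the profile most like each of the 4 genes were sought among 8482 rows with at least 50 counts on average. Likeness is the root mean square difference of the centred log2(CPM + 0.5) over the 6 libraries, which fall into 2 groups, so any transcript with a similar difference between the groups scores well. Closest to *scarb1* were *drc4* (0.057), *depdc7a* (0.058) and *cyp2k17* (0.084). Closest to *acsbg2* were *scin* (0.076), *cyp2k17* (0.078) and *zgc:113423* (0.092). Closest to *retsat.2* were *ak4* (0.044), *selenoj* (0.049) and *nudt12* (0.049). Closest to *acp6* were *hspa5* (0.124), *dnajb9b* (0.125) and *pdia4* (0.135), which encode chaperones and a disulfide isomerase of the endoplasmic reticulum. Like *acp6*, *hspa5* was highest in rzIl26 replicate 2, with 529, 571 and 505 CPM after BSA and 1107, 1449 and 1236 CPM after rzIl26.

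**Figure D5:**
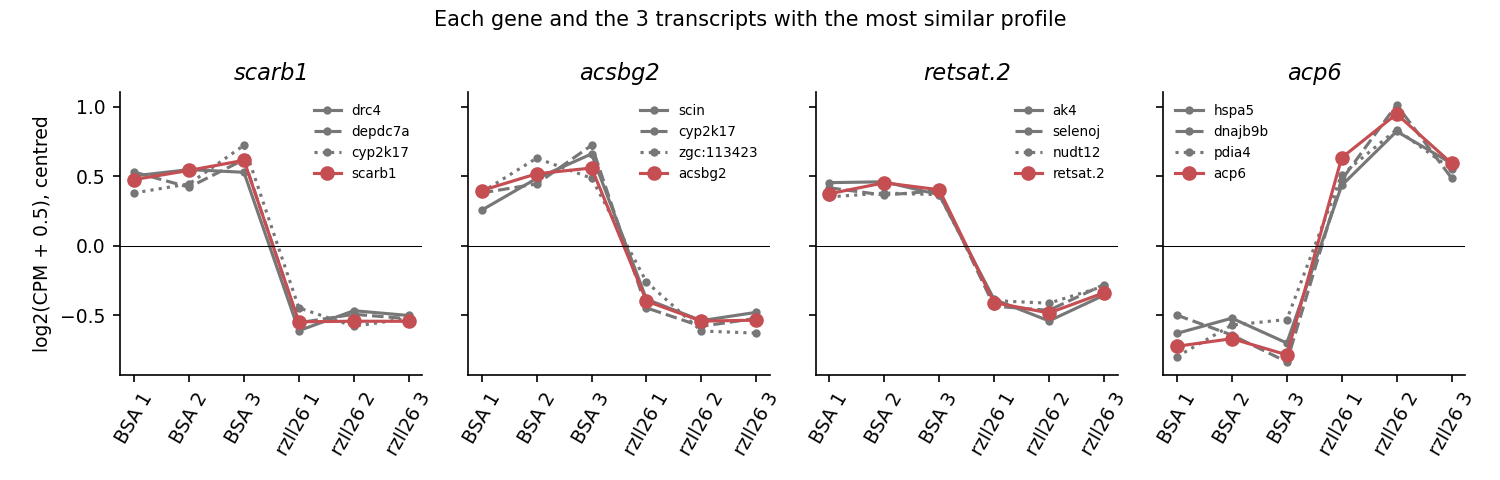
Profiles of each selected gene (red) and of the 3 transcripts most like it (grey) over the 6 libraries, as centred log2(CPM + 0.5). Lines join the values of a transcript and carry no order among replicates. For *acp6* and its 3 companions rzIl26 replicate 2 is the highest library.

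The neighbours of the 4 genes on the chromosome were also looked at. Next to *scarb1*, the ubiquitin gene *ubc* was lower (log2 fold change -0.35, adjusted p = 0.017, SE 0.07), and next to *acsbg2* the transcription factor gene *rfx2* was lower (-0.94, adjusted p = 0.016, SE 0.18). Next to *acp6*, *gja5a*, for a gap junction protein, did not pass (0.47, adjusted p = 0.23, SE 0.25). Each of the calls of *ubc* and *rfx2* was kept in 4 of 6 fits without a library. The other neighbours, apart from *retsat.1*, were not tested. In the reference annotation *scarb1* overlaps the gene *myo18b*. The libraries were stranded, but how strand was used in counting is not stated.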

How the data were processed

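Guts of 5 dpf larvae were pooled (10 to 15 per library), and stranded poly(A) libraries were sequenced. Reads were checked by the authors with FastQC 0.11.8 and referred to the danRer11 build. The aligner, the counter, the annotation and the handling of reads shared between genes are not given in the sources used here. The authors deposited raw counts for 16134 RefSeq transcript rows, of which 15776 were matched to a symbol in the NCBI RefSeq gene table of another assembly (GRCz12tu), so no coordinates are given.

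Counts were filtered with filterByExpr (minimum count 10), TMM-normalized and tested with the quasi-likelihood test of edgeR 4.0.16 in R 4.3.3, with Benjamini-Hochberg adjustment over 10576 rows and a threshold of 0.05. Only the 2 groups entered the fit. Other scalings and filters, DESeq2 1.42.0, limma-voom (limma 3.58.1), a replicate block, a liver covariate and leaving out each library were the alternatives. The members and lists were chosen with earlier results of these data known. Named were the 4 genes, the genes listed as their relatives, and from each list at most 4 called genes by lowest adjusted p. Also named were the 3 transcripts most like each gene, and others are marked as chosen after their values were seen. Where nothing says that pools came from separate clutches, p-values measure only the spread between these pools. No sequence comparison was made.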

Additional observations from a re-analysis of the deposited data

How the results depend on the processing

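The log2 fold changes of the 4 genes kept their sign under the alternatives run. So did those of the called genes among the listed relatives and the at most 4 called genes named per list by lowest adjusted p. For the other named genes the sign under the alternatives was not followed. With scaling by library totals alone 1783 rows were higher and 400 lower, against 980 and 1015 as reported. The log2 fold changes were then -0.93 for *scarb1*, -0.83 for *acsbg2*, -0.66 for *retsat.2* and 1.64 for *acp6*. With it the acyl-CoA synthetases had 0 lower, the retinoid list 7 lower and 4 higher, and the lysophosphatidic acid list 3 lower and 7 higher. With liver content as a covariate the synthetases had 1 lower and 1 higher, the retinoid list had 1 higher, and 10 genes of the endoplasmic reticulum list were higher. Upper-quartile factors and no filter each left 1 higher synthetase. The cause was not tested. With 1 library left out, 339 to 874 rows were higher and 398 to 940 lower, with 339 and 398 without BSA replicate 1, 481 and 497 without BSA replicate 2, 453 and 525 without BSA replicate 3 and 404 and 420 without rzIl26 replicate 2. The log2 fold changes then ran from -1.13 to -1.06 for *scarb1*, -1.04 to -0.95 for *acsbg2*, -0.86 to -0.79 for *retsat.2* and 1.35 to 1.54 for *acp6*. In the same fits the HDL list had 3 to 5 lower and 0 to 2 higher, the synthetases 0 to 5 lower and 0 to 1 higher, the acyl-CoA list 5 to 8 lower and 2 to 4 higher, the retinoid list 5 to 12 lower and 1 to 3 higher, the lysophosphatidic acid list 3 to 7 lower and 2 higher, and the endoplasmic reticulum list 7 to 16 higher. Same-numbered libraries had correlations of deviations of 0.309, 0.112 and 0.0077, and the other pairs ran from -0.248 to 0.188. These values do not settle whether the numbers pair the samples. The numbers are not said to mark a shared animal or day, so they were not taken to pair them. With the replicate block 883 rows were higher and 844 lower, and the 4 log2 fold changes were -1.09, -0.98, -0.82 and 1.47. At low counts, as for *crabp2a*, counting error limits the precision.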

Other observations

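After *hspa5*, *dnajb9b* and *pdia4* were seen to have the profiles most like *acp6*, genes of protein folding and stress in the endoplasmic reticulum were counted. The list was written after values were seen, so it carries no test of its own. Of 27 tested genes 16 rose and 0 fell by edgeR's test over all rows (background 9.27% higher), and the median change was 0.37 in log2. The 16 include *hspa5*, *dnajb9b* and *pdia4*, whose rise prompted the list, so the count cannot be compared with the background as an independent result. Their summed level was 3922 to 4040 CPM after BSA and 5120 to 6064 CPM after rzIl26. The chaperone genes *hspa5* (1.24), *hyou1* (1.08), *hsp90b1* (1.02) and *calr3b* (0.75, all log2 fold changes) rose. Among the transcription factor genes of the stress response, *atf6* (0.37, adjusted p = 0.034) and *atf4b* (0.34, adjusted p = 0.035) rose, each call kept in 1 of 6 fits without a library. The genes *xbp1* (0.02), *atf4a* (-0.09) and *ddit3* (-0.06) did not pass. The count of higher genes was 10 with liver content as a covariate, 8 without BSA replicate 1, 8 without BSA replicate 2, 7 without BSA replicate 3 and 7 without rzIl26 replicate 2. Over all rows these fits gave 732, 339, 481, 453 and 404 higher, in that order, against 980 as reported. The secretory markers *agr2* and *anxa4* were higher in the same libraries, and their part in these values was not tested.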
